A study of Mus musculus with 12 samples.

Results

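Collagens are the structural proteins of the extracellular matrix, and each gene of the family encodes 1 α chain. Transcripts of these chain genes were followed in mouse pre-B cell lines with and without BCR-ABL1, as a measure of how far cells of the B lineage express matrix genes of their own. Of 51826 genes in the count table, 44 were protein-coding genes with a collagen chain symbol (Col, a type number, a and a chain number). Of these 44, 12 had at least 10 counts in at least 3 lines and are called detected below, whereas 32 did not.

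The lines came from bone marrow of 2 C57BL/6 mice that was cultured with IL7 for 7 days. From each mouse, 3 lines were transduced with an empty retroviral vector (EV) and 3 with BCR-ABL1, the fusion kinase of Philadelphia chromosome-positive leukemia, which gave 6 EV and 6 BCR-ABL1 lines. IL7 was present in all cultures for the first 48 h. BCR-ABL1 lines then grew for 1 week in its absence and were taken as transformed, and EV lines, matched in culture time, always had IL7 and were GFP-sorted. BCR-ABL1, growth without IL7 and the sort, which is stated for EV lines, therefore cannot be told apart, and neither can fewer cells with a transcript and less of it per cell in RNA from whole cultures. Lines are named by condition, mouse and letter (EV 2A is line A of mouse 2), and p-values measure the spread between lines of only 2 animals.

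A collagen molecule is a triple helix of 3 chains, either of 1 kind or of several. Chains of the fibrillar class build the banded fibrils of bone, cartilage and skin, and fibril-associated (FACIT) chains decorate their surface. Type IV chains form the network of basement membranes, and type VII chains anchor epithelia to the tissue beneath. Newly made chains are hydroxylated on proline and lysine in the endoplasmic reticulum before they fold. In bone marrow, collagen is known mainly as a product of stromal and bone-forming cells, on which B cell precursors grow.

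Total counts per line ranged from 34791011 in EV 2A to 66011225 in BCR-ABL1 2B. All 14 B lineage markers on the list used, among them Cd79a, Pax5 and Vpreb1, were abundant enough to be tested, of which Dntt was called higher and Il7r lower. Their summed level was 5353 to 8651 CPM (TMM-scaled counts relative to library size) in EV lines and 5224 to 6103 in BCR-ABL1 lines. Of 16 stromal markers none was tested, no gene exceeded 26 counts in a line, and their summed level was 0.261 to 3.77 CPM in EV lines against 0.273 to 1.10 CPM with BCR-ABL1. Pdpn and Acta2 had at most 2 counts in a line. The list of 8 bone-forming markers had 4 detected and 3 tested genes. Among those tested, 1 was called higher, 1 lower and 1 neither, with a median log2 fold change of 0.80. Sp7, Ibsp and Bglap2 had at most 3 counts in a line. Of the other genes on that list, Alpl was called higher (8.53 to 47.7 CPM in EV, 146 to 184 CPM in BCR-ABL1 lines, adjusted p = 0.00198) and Spp1 lower (25.5 to 80.2 against 4.02 to 7.53 CPM, adjusted p = 2.96e-05). On the lists of other blood and vessel cells, Trac, Cd3d and Itga2b were called lower and Hbb-bt higher, while Pecam1, Cd68, Klf1 and Klrb1c did not pass the test and no mast cell or basophil marker was abundant enough for it. The part of these markers in the collagen results was not tested.

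EV 2A and EV 2B stood apart at low counts. EV 2A, the line with the fewest counts, had more than 3 counts for 43 of the 44 collagen genes, EV 2B for 30, and the other 10 lines for 8 to 22. In the same lines, 317 of 1134 olfactory receptor genes, which pre-B cells are not known to use, exceeded 3 counts in EV 2A, 95 in EV 2B and 63 to 77 elsewhere. That comparison list was picked after the collagen values had been seen. Of the 32 undetected collagen genes, 30 had their highest count in EV 2A. The part of this breadth in the results was not tested.

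**Figure D1:**
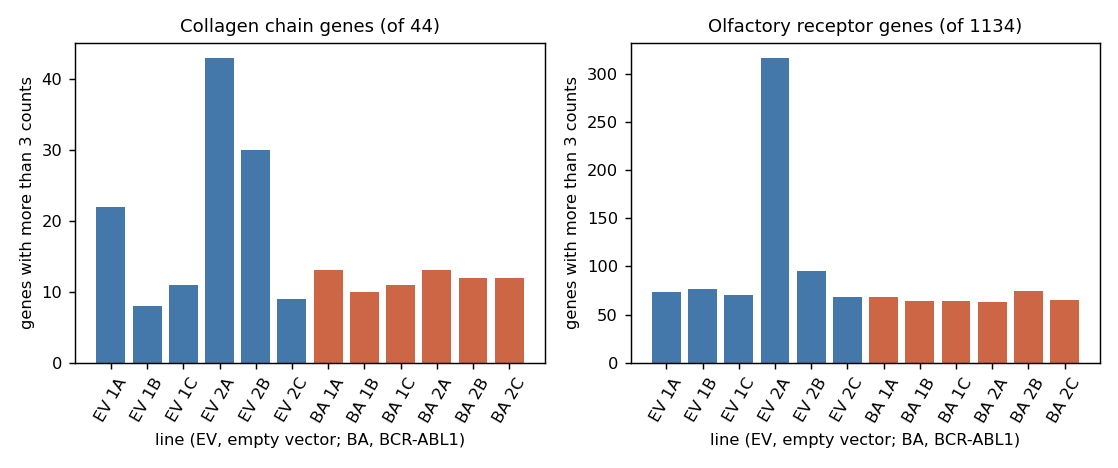
Number of genes with more than 3 counts in each line, for the 44 collagen chain genes (left) and for 1134 olfactory receptor genes (right), with EV lines in blue and BCR-ABL1 lines (BA) in orange. EV 2A reaches 43 collagen and 317 olfactory receptor genes, and EV 2B reaches 30 and 95.

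The detected chains were few and belonged to 3 of 7 classes. Of 11 fibrillar chains 5 were detected (Col2a1, Col5a2, Col5a3, Col11a2 and Col27a1), of 9 FACIT chains 4 (Col9a3, Col12a1, Col14a1 and Col20a1), and of 9 chains of beaded filaments, anchoring fibrils and other types 3 (Col6a6, Col7a1 and Col26a1). None of 6 basement membrane, 3 short chain network, 4 transmembrane and 2 multiplexin chains was detected. Only 5 genes (Col11a2, Col7a1, Col9a3, Col20a1 and Col26a1) had 10 counts in all 12 lines. Without EV 2A and EV 2B, 10 genes were detected. In the BCR-ABL1 lines no undetected gene exceeded 7 counts, 28 of the 32 stayed at or below 3 counts in each line, and Col3a1, Col4a5 and Col9a1 were at 0 in all 6. A count of 0 allows up to 3 counts, which is 0.0433 to 0.0920 CPM depending on the line.

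**Figure D2:**
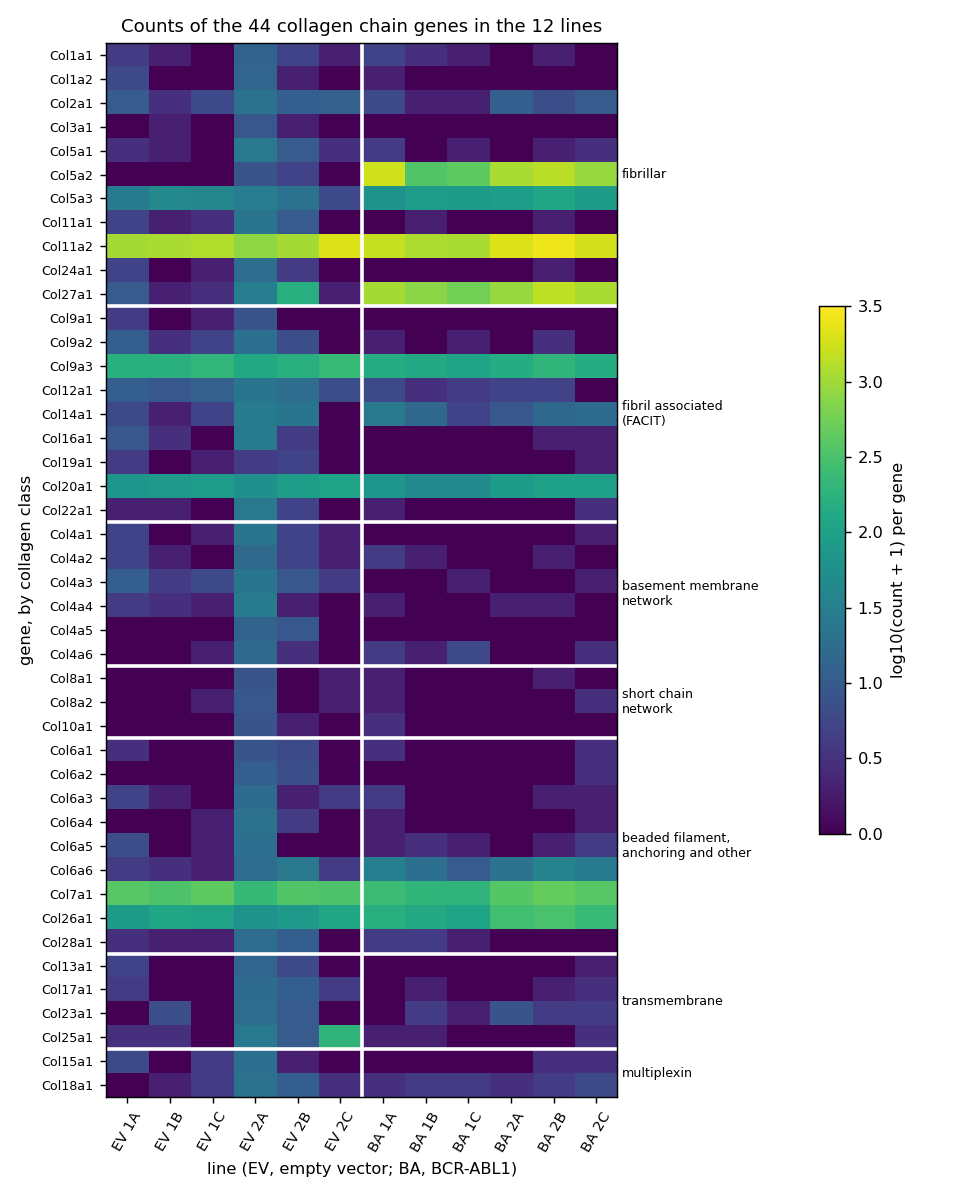
Counts of all 44 collagen chain genes (rows, by class) in the 6 EV and 6 BCR-ABL1 (BA) lines, as log10 of the count plus 1. Few rows are bright across lines, Col5a2 and Col27a1 are bright only in BA columns apart from 156 counts of Col27a1 in EV 2B, and the EV 2A column shows low counts in nearly every row.

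Fitted over 15038 genes, 4 of the 10 collagen genes that passed the expression filter were called higher in BCR-ABL1 lines (edgeR, tested against a 1.5-fold change, adjusted p under 0.05), and none was called lower. Over all tested genes 5.99% were called higher and 6.49% lower. The genes called were 3 fibrillar chains, Col5a2, Col27a1 and Col5a3, and Col26a1. At an unadjusted p the counts were the same 4 and 0, and the likelihood ratio fit gave 4 and 0 and DESeq2 3 and 0. Without EV 2A and EV 2B, 5 were called higher, namely Col5a2, Col27a1, Col5a3, Col6a6 and Col14a1, and Col26a1 was not (adjusted p = 0.0754). That fit called 1438 of all 15404 tested genes higher and 949 lower. Those lines were left out after the data were seen. Over all 12 lines the median log2 fold change of the 10 collagen genes was 0.81, with 7 above and 3 below 0, beside −0.02 over all tested genes. Among EV lines Col14a1 had 10 counts only in 2A and 2B, where its counts were also the highest. Col5a2 had 10 counts in BCR-ABL1 lines alone, and among EV lines Col27a1 and Col6a6 had 10 counts only in 2A and 2B, so the filter kept these 3 genes mainly through the condition where they were high. The median and the 4 of 10 therefore describe the tested genes and not the family. All 6 BCR-ABL1 lines lay above all 6 EV lines for the same 4 genes, a pattern seen in 12.1% of all tested genes.

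Col5a2 (chr1:45374321-45503282, minus strand, GRCm38), the α2 chain of type V collagen that sits inside fibrils of type I collagen and sets their width, showed the widest separation. It had 0 counts in EV 1A, 1B, 1C and 2C, 7 counts (0.215 CPM) in EV 2A and 4 counts (0.0795 CPM) in EV 2B. In BCR-ABL1 lines it had 29.9, 7.48 and 9.61 CPM in lines 1A, 1B and 1C, and 21.7, 21.1 and 19.0 CPM in lines 2A, 2B and 2C, or 358 to 1766 counts. The gene was thus near or at 0 in each EV line and among the leading collagen genes in each BCR-ABL1 line, with the widest range among BCR-ABL1 lines of mouse 1. Mean log2 CPM was higher by 8.04 (SE 0.58, n = 6 and 6), the fitted log2 fold change was 8.83 and the adjusted p was 6.4e-05. The fitted value depends on how zeros are treated. Within mouse 1, where all EV lines were at 0, the level was at least 322-fold higher, taking 3 counts per library as the floor. By exact permutation of the 12 labels the two-sided p was 0.00216, the smallest that 6 against 6 lines allow. Col5a2 was detected through BCR-ABL1 lines alone, where it was high. The permutation p therefore adds no support.

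Col27a1 (chr4:63214004-63334991, plus strand) encodes the fibrillar α1 chain of type XXVII collagen, known from cartilage. In EV lines its level was 0.169, 0.0144 and 0.0307 CPM in 1A, 1B and 1C, and 0.889, 3.10 and 0.0180 CPM in 2A, 2B and 2C. In BCR-ABL1 lines it was 18.3, 16.4 and 13.0 CPM for mouse 1 and 17.5, 22.6 and 23.2 CPM for mouse 2. The conditions were far apart, although EV 2B, with 156 counts, exceeded the other EV lines. Mean log2 CPM was higher by 6.36 (SE 1.01), and the fitted log2 fold change was 4.74 (adjusted p = 0.0134, exact permutation p = 0.00216). With mouse as a block the fitted value was 5.51 (adjusted p = 0.00304). Among lines of mouse 1 it was 7.91 (adjusted p = 2.95e-08) and without EV 2A and EV 2B it was 8.33 (adjusted p = 4.94e-06). Among lines of mouse 2, which include EV 2A and EV 2B, it was 3.99 and not called (adjusted p = 0.115). EV 2A and EV 2B held the highest EV values of this gene and were left out after these were seen. The larger value without them was thus fixed in advance.

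Col5a3 (chr9:20770050-20815067, minus strand) encodes the α3 chain of type V collagen, a less widespread partner of α1 and α2. EV lines held 0.527, 0.621 and 0.584 CPM for mouse 1 and 0.889, 0.397 and 0.0902 CPM for mouse 2. BCR-ABL1 lines held 1.05, 1.80 and 1.82 CPM for mouse 1 and 1.73, 1.72 and 1.66 CPM for mouse 2. Levels were low in both conditions, with 62 to 113 counts in BCR-ABL1 lines, but did not overlap. Mean log2 CPM was higher by 1.78 (SE 0.42), with a fitted log2 fold change of 1.66 (adjusted p = 0.0269, exact permutation p = 0.00216). The call was lost in lines of mouse 2 alone (1.97, adjusted p = 0.211). It was also lost without EV 2B (adjusted p = 0.0553), without BCR-ABL1 2A (adjusted p = 0.0501) and with mouse and letter together as a block.

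Col26a1 (chr5:136741759-136883209, minus strand) encodes a short collagen with an N-terminal EMI domain. EV lines held 1.51, 1.63 and 1.58 CPM for mouse 1 and 1.90, 1.49 and 2.22 CPM for mouse 2. BCR-ABL1 lines held 2.63, 2.72 and 2.43 CPM for mouse 1 and 5.33, 4.74 and 4.77 CPM for mouse 2. The BCR-ABL1 lines of mouse 2 were all above those of mouse 1. Mean log2 CPM was higher by 1.05 (SE 0.23), with a fitted log2 fold change of 1.13 (adjusted p = 0.0385, exact permutation p = 0.00216). This call was the least firm of the 4. It was lost with DESeq2 (adjusted p = 0.160), in lines of mouse 1 alone (0.73, adjusted p = 0.192) and on leaving out any 1 of EV 1A, 1B, 1C or 2B or BCR-ABL1 2A, 2B or 2C (adjusted p 0.0657 to 0.0936), but was kept with mouse as a block (adjusted p = 0.0124).

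**Figure D3:**
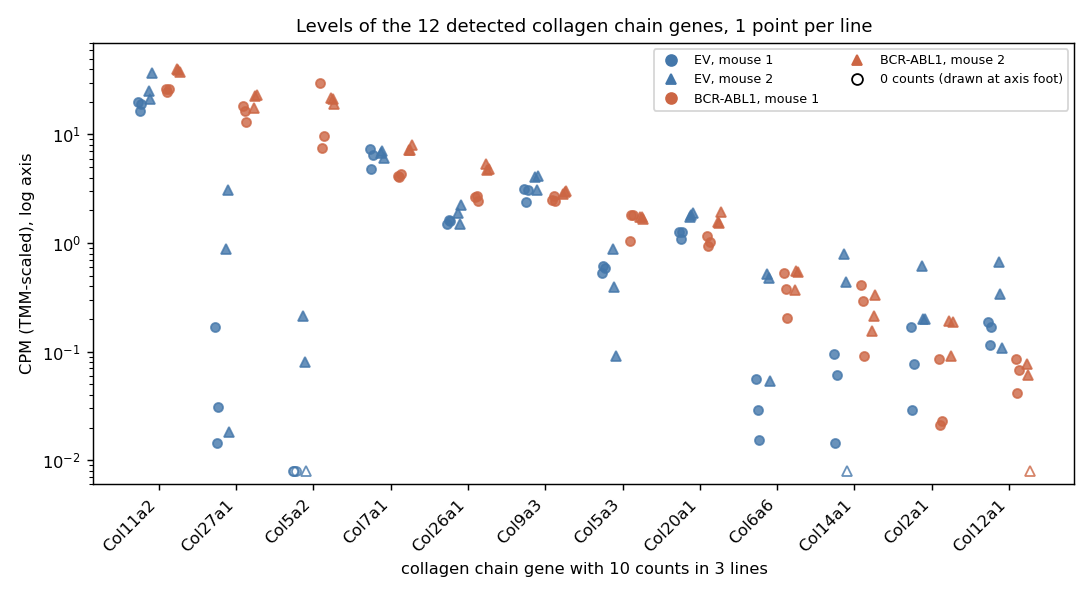
CPM of the 12 detected collagen chain genes in each line on a log axis, ordered by mean level in BCR-ABL1 lines. Blue symbols are EV lines, orange symbols BCR-ABL1 lines, circles mouse 1 and triangles mouse 2, and open symbols at the foot mark 0 counts. Orange and blue symbols are apart for Col5a2, Col27a1, Col5a3 and Col26a1, and for Col12a1 in the other direction.

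Of the chains that share a trimer with Col5a2, Col5a3 was called higher as well, whereas Col5a1 was not detected. Type V collagen is usually a trimer of α1 and α2 chains, and Col5a1, which encodes α1, had 0 to 3 counts in BCR-ABL1 lines, where Col5a2 had at least 358. In EV lines Col5a1 had 25 counts in 2A, 9 in 2B and 0 to 2 in the others. Col1a1 and Col1a2, the chains of type I collagen, had at most 4 counts and 1 count in BCR-ABL1 lines, and Col3a1, whose gene lies 24615 bp from Col5a2, had 0. Chains of types V and XI can also occur in mixed trimers, and there Col11a2 was abundant whereas Col11a1 had at most 1 count in a BCR-ABL1 line and 21 in EV 2A. Transcript counts do not show which trimers were made.

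Of the 6 tested genes that were not called, Col6a6, a chain of beaded filaments, was nearest to the threshold. In EV lines it held 0.0565, 0.0289 and 0.0154 CPM for mouse 1 and 0.521, 0.477 and 0.0541 CPM for mouse 2. In BCR-ABL1 lines it held 0.526, 0.376 and 0.205 CPM for mouse 1 and 0.366, 0.548 and 0.540 CPM for mouse 2. The only EV lines at the level of BCR-ABL1 lines were 2A and 2B. The fitted log2 fold change was 1.26 (adjusted p = 0.495), against 3.48 within mouse 1 (adjusted p = 0.000702) and 3.43 without EV 2A and EV 2B (adjusted p = 0.000328). Within mouse 1, where EV lines had at most 3 counts, its mean level was 0.369 CPM in BCR-ABL1 lines. Col14a1, a FACIT chain, spanned 0 to 0.797 CPM in EV lines against 0.0909 to 0.407 CPM with BCR-ABL1, with EV 2A and EV 2B again highest. Its fitted log2 fold change of 0.22 (adjusted p = 1) became 2.51 without those lines (adjusted p = 0.0332) and −0.73 within mouse 2 (adjusted p = 1). For Col6a6 and Col14a1, EV 2A and EV 2B were left out after these values were seen. The larger changes without them were thus fixed in advance.

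Col11a2 (chr17:34039437-34066685), the α2 chain of type XI collagen of cartilage, had the highest mean CPM of the collagen genes in both conditions, although Col5a2 exceeded it in BCR-ABL1 1A (29.9 against 26.5 CPM). EV lines held 20.1, 16.3 and 19.1 CPM for mouse 1 and 25.0, 21.1 and 37.1 CPM for mouse 2. BCR-ABL1 lines held 26.5, 24.4 and 26.1 CPM for mouse 1 and 40.4, 38.9 and 38.0 CPM for mouse 2. Lines of mouse 2 were higher within each condition, and EV 2C reached the level of the BCR-ABL1 lines of its mouse. The fitted log2 fold change was 0.49, with mean log2 CPM higher by 0.50 (SE 0.22), and was not called (adjusted p = 1).

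Col7a1, the chain of anchoring fibrils, held 4.81 to 7.34 CPM in EV lines. In BCR-ABL1 lines it held 4.17, 4.08 and 4.29 CPM for mouse 1 and 7.14, 7.22 and 7.99 CPM for mouse 2. The fitted log2 fold change was −0.14 over all lines (adjusted p = 1), −0.56 within mouse 1 and 0.19 within mouse 2. The difference between the mice, tested as an interaction, was 0.74 (adjusted p = 0.0479), which made Col7a1 the only one of 10 tested collagen genes with such a call, beside 16.9% of all tested genes. The interaction was lost in 9 of 12 fits that each left out 1 line (EV 1A, 1C or 2A, or any BCR-ABL1 line), and 5 collagen genes had one without EV 2C (Col6a6, Col7a1, Col14a1, Col26a1 and Col27a1).

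Col9a3 and Col20a1, both FACIT chains, did not pass the test. Col9a3 held 2.40 to 4.15 CPM in EV lines against 2.43 to 2.99 CPM with BCR-ABL1 (log2 fold change −0.27, adjusted p = 1), while its partners Col9a1 and Col9a2 were not detected. Its exons share 234 bp with Tcfl5 on the other strand, which had at most 6 counts in a line. Col20a1 held 1.10 to 1.89 CPM in EV lines against 0.940 to 1.95 CPM with BCR-ABL1 (log2 fold change −0.16, adjusted p = 1). The value of Col20a1 is uncertain, since its exons share 79 bp with those of BX649560.1, annotated on the same strand and more abundant, with a median of 11.3 CPM in EV lines.

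Col2a1, the main chain of cartilage fibrils, and Col12a1, a FACIT chain, were detected but did not pass the expression filter. Col12a1 had 10, 8, 11, 22, 17 and 6 counts in EV lines 1A to 2C and 5, 2, 3, 4, 4 and 0 in the BCR-ABL1 lines in the same order. The conditions did not overlap (exact permutation p = 0.00216), with the highest values again in EV 2A and EV 2B. The share of all genes with this pattern is not given here. Without those lines only 2 lines reached 10 counts, so that Col12a1 was not detected and not tested, while the lowest EV line (0.108 CPM) stayed above the highest BCR-ABL1 line (0.0848 CPM). When every gene with 10 counts in 3 lines was tested, Col12a1 was called lower (log2 fold change −2.15, adjusted p = 0.0454) and Col2a1 was not (adjusted p = 0.632). In that fit 1243 of all 16407 tested genes were called lower. Col12a1 had 10 counts in EV lines alone, so this filter, which is also the detection rule, kept it through the condition where it was high. The permutation was run on detected genes only. Neither the call nor the permutation p therefore adds support.

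Per transcript length (RPKM on the union of exons), Col11a2 led in EV lines with 3.36 ± 1.08 (SD, n = 6), followed by Col9a3 with 0.860 ± 0.171, Col7a1 with 0.623 ± 0.0883, Col20a1 with 0.295 ± 0.0669 and Col26a1 with 0.211 ± 0.0349. The ranges of Col9a3 and Col7a1 overlapped, as did those of Col20a1 and Col26a1 and of all neighbours in the order from Col5a3 (0.0761 ± 0.0389) downward. In EV lines Col27a1 was the seventh in this order, with 0.0540 ± 0.0938, and Col5a2 the last of the detected genes, with 0.00511 ± 0.00909. In BCR-ABL1 lines Col11a2 still led, with 4.71 ± 1.08, and Col5a2 with 1.89 ± 0.869 and Col27a1 with 1.42 ± 0.297 came next, their ranges overlapping with each other but not with that of Col11a2. Col9a3 (0.710 ± 0.0594), Col7a1 (0.565 ± 0.177), Col26a1 (0.461 ± 0.160), Col20a1 (0.264 ± 0.0752) and Col5a3 (0.239 ± 0.0424) followed, each overlapping with the next. On the length of the longest transcript the first 3 places in BCR-ABL1 and in EV lines were the same, but Col26a1 moved from rank 5 to 4 in EV and from rank 6 to 4 in BCR-ABL1 lines, and the ranges of Col11a2 and Col5a2 then overlapped.

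As a share of all collagen reads, Col11a2 accounted for 55.3% on average in EV lines (42.0 to 66.7%) and 38.1% in BCR-ABL1 lines (30.1 to 42.5%). Col5a2 accounted for 0.0913% and 20.5%, and Col27a1 for 1.57% and 21.9%. Together these 3 genes made up 43.8 to 66.8% of collagen CPM in EV lines and 78.4 to 84.99% in BCR-ABL1 lines. Summed collagen CPM was 27.4 to 59.6 in EV lines, with the highest sum in EV 2A, and 61.4 to 102 in BCR-ABL1 lines. Longer transcripts weigh more in these sums, which are given without a test.

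**Figure D4:**
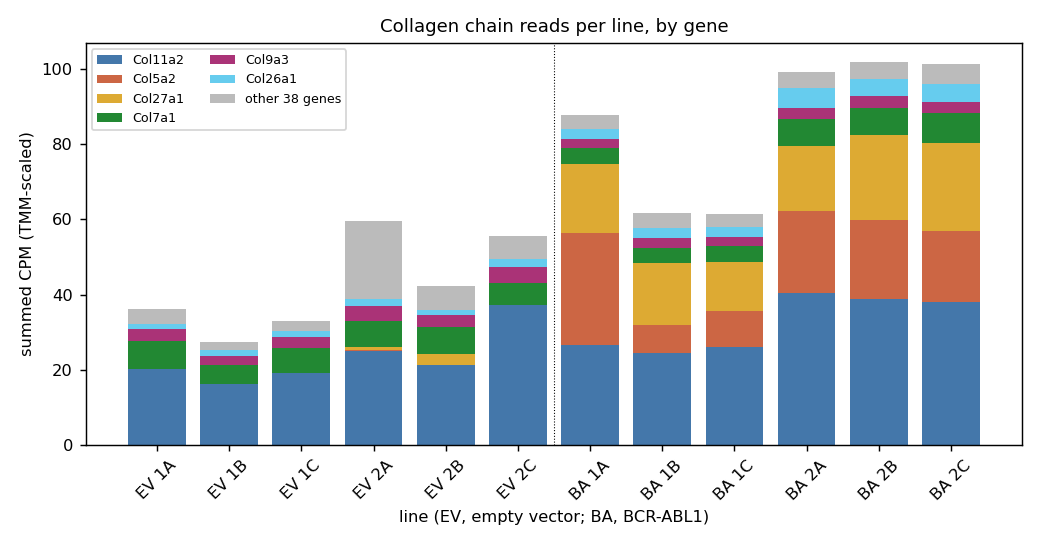
Summed CPM of the 44 collagen chain genes in each line, stacked by gene, with EV lines left and BCR-ABL1 lines (BA) right of the dotted line. The Col5a2 and Col27a1 segments are visible in all BA lines and nearly absent from EV lines, the Col11a2 segment is present in all 12, and EV 2A has the largest segment of the other 38 genes.

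RefSeq promoters (GRCm38.p6), from 250 bases before to 50 after the start site, were found for 2 of the 4 called genes. They are printed because both genes rose, with GGGCGG, the core of the GC box of many promoters, in capitals on either strand.
Col27a1, chr4:63215162-63215461, plus strand: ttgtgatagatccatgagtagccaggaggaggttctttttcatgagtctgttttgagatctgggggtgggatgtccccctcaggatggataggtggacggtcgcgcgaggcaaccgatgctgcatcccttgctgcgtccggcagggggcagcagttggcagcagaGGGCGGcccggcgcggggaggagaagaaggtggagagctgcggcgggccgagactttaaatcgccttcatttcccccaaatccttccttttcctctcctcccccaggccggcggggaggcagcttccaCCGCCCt
Col5a3, chr9:20815018-20815317, minus strand: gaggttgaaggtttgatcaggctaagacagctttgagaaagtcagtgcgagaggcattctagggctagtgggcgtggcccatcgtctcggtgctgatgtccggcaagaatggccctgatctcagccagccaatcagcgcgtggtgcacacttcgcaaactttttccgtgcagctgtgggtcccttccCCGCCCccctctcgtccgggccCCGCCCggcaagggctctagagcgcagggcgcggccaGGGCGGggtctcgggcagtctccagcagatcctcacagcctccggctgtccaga
The GC content was 61.7% for Col27a1 and 63.3% for Col5a3, beside a median of 52.7% over 32851 mouse promoters. GGGCGG occurred 2 times in the Col27a1 window and 3 times in that of Col5a3, and at least once in 35.7% of all promoters. TTCNNNGAA, the motif of STAT factors, and TATAAA, the TATA box, were in neither window and in 8.30% and 13.6% of all promoters on either strand.

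Neighbouring genes were read beside the called members and beside Col11a2, Col9a3, Col7a1 and Col20a1. Myl10, a myosin light chain gene 40665 bp from Col26a1 on the other strand, rose from a median of 48.5 to 1151 CPM (log2 fold change 4.02, adjusted p = 0.000932). Ift22, an intraflagellar transport gene nearer to Col26a1 on its other side at 24941 bp, was not called (−0.20, adjusted p = 1). Wdr75, which codes for a ribosome assembly factor and is the next coding gene on the other side of Col5a2 at 291884 bp, also rose (1.13, adjusted p = 0.0177). The genes beside Col27a1 (Kif12 and Orm1) and Col5a3 (Olfm2 and Rdh8) had at most 12 counts in a line. Col11a2, Col9a3, Col7a1 and Col20a1 each lay downstream of a more abundant coding gene on the same strand. In EV lines the medians were 102 CPM for Rxrb (1038 bp from Col11a2) and 101 CPM for Ogfr (1954 bp from Col9a3). They were 155 CPM for Uqcrc1 (3963 bp from Col7a1) and 68.3 CPM for Arfgap1 (4009 bp from Col20a1). The part of these neighbours in the collagen counts was not tested.

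The machinery that matures collagen chains was expressed in part. Of 32 genes for chain hydroxylation, folding, export and crosslinking, 13 were tested, 1 was called higher and 0 lower, with a median log2 fold change of 0.15. A share of 1 in 13 is near the 5.99% called higher over all tested genes. DESeq2 and the likelihood ratio fit also called 0 lower, and 1 gene, Loxl3, was lower at an unadjusted p (log2 fold change −0.89, adjusted p = 0.217). P4ha1, the catalytic α subunit of prolyl 4-hydroxylase, held 4.52, 4.92 and 5.13 CPM in EV lines of mouse 1 and 27.6, 22.5 and 37.4 CPM in those of mouse 2. In BCR-ABL1 lines it held 71.7, 73.5 and 74.9 CPM for mouse 1 and 96.5, 77.2 and 76.2 CPM for mouse 2. The fitted log2 fold change was 2.21 (adjusted p = 0.0239), and the rise was smaller in mouse 2 by 2.40 (interaction, adjusted p = 4.34e-05). P4hb, the β subunit that doubles as protein disulfide isomerase, held 166 to 278 CPM in EV lines against 270 to 356 CPM with BCR-ABL1 and was not called (0.58, adjusted p = 0.747). Serpinh1, the collagen-specific chaperone HSP47, had at most 9 counts in any line, that count in EV 2A, and at most 3 in BCR-ABL1 lines.

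Of 13 collagen receptors 5 were tested and none was called in either direction, with a median log2 fold change of −0.33. None was past an unadjusted p of 0.05 or called by DESeq2 or the likelihood ratio fit. Itgb1, the β1 integrin subunit shared by the collagen-binding integrins, held 71.3 to 191 CPM in EV lines against 114 to 152 CPM with BCR-ABL1 (0.35, adjusted p = 1). Of its collagen-binding α partners, Itga10 held 1.77 to 2.61 against 1.37 to 2.12 CPM (−0.34, adjusted p = 1). Itga1 held 0.0144 to 1.13 against 0.182 to 0.847 CPM (0.39, adjusted p = 1) and was called higher without EV 2A and EV 2B. Of collagenases and other turnover genes 5 of 19 were tested and none was called, with a median of 0.18. The cathepsin gene Ctsl was the only one past an unadjusted p, held 0.433 to 1.84 CPM in EV lines against 1.44 to 3.06 CPM with BCR-ABL1, and was called higher with mouse as a block (1.22, adjusted p = 0.0185, against 1.13 and adjusted p = 0.135 without). DESeq2 and the likelihood ratio fit called 0 of these genes in either direction. In mouse 1, Mmp14 held 7.63 to 10.7 CPM in EV lines against 21.6 to 27.4 CPM with BCR-ABL1. In mouse 2 it held 44.3 to 118 CPM against 19.3 to 22.1 CPM (interaction, adjusted p = 0.000171). Mmp13 also had an interaction (adjusted p = 0.0223), beside 16.9% of all tested genes.

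Among 40 other matrix genes 11 were tested, 1 was called higher and 1 lower, with a median log2 fold change of 0.17. A share of 1 in 11 is near the 5.99% called higher and 6.49% called lower over all tested genes. Nid2, encoding the basement membrane protein nidogen-2, had 0 to 12 counts in EV lines, the most in EV 2A (0.368 CPM). In BCR-ABL1 lines it held 3.02, 3.57 and 4.02 CPM for mouse 1 and 56.7, 60.1 and 61.0 CPM for mouse 2 (8.81, adjusted p = 0.000611). Lamb1, the laminin β1 chain, held 5.78, 5.36 and 5.64 CPM in EV lines of mouse 1 and 1.90, 8.24 and 0.198 CPM in those of mouse 2, against 0 to 0.137 CPM in BCR-ABL1 lines (−6.17, adjusted p = 0.000705). With mouse as a block 4 genes were called higher, the laminin chains Lamb2 (1.42, adjusted p = 0.0447), Lamb3 (1.44, adjusted p = 0.0271) and Lamc1 (1.26, adjusted p = 0.0103) beside Nid2. All 3 laminin genes changed less in mouse 2 than in mouse 1 by the interaction test, and Lamc1 held 35.2 to 108 CPM in EV lines against 123 to 158 CPM with BCR-ABL1.

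**Figure D5:**
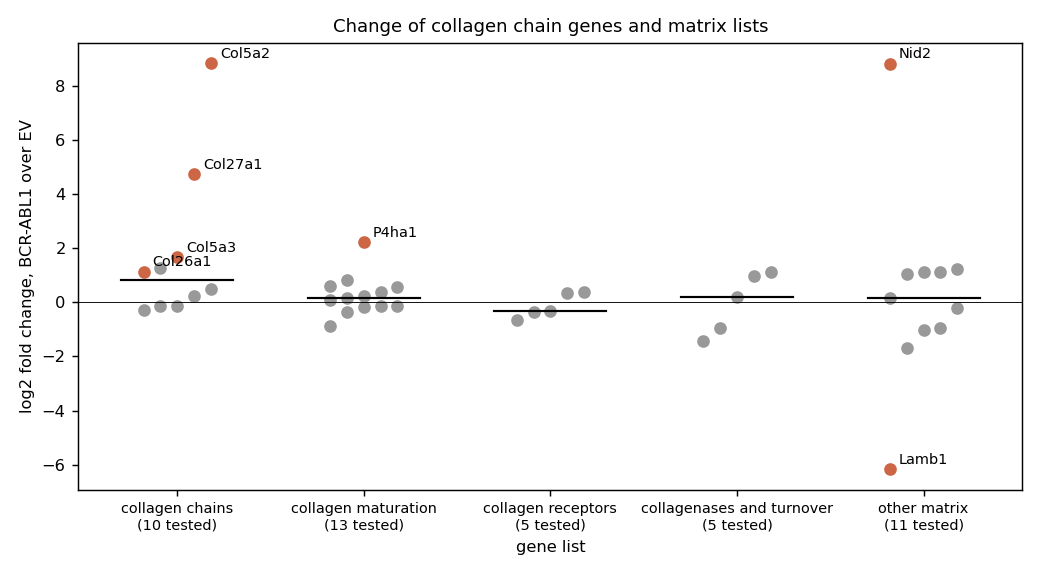
Fitted log2 fold change (BCR-ABL1 over EV) of the tested genes of each list, 1 point per gene, with called genes in orange and named, the others in grey, and the median as a bar. Called genes are 4 of 10 collagen chains, all higher, 1 of 13 maturation genes, 0 of 5 receptors, 0 of 5 turnover genes and 2 of 11 other matrix genes (Nid2 higher, Lamb1 lower). Over all tested genes 5.99% were called higher and 6.49% lower. The filter kept Col5a2, Col27a1 and Col6a6 mainly through BCR-ABL1 lines, so the collagen share is not one of the family.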

How the data were processed

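RNA of 12 mouse pre-B cell lines was sequenced on stranded total RNA libraries, and the authors deposited whole-number read counts per gene without normalization or pooling. The submitters' processing notes list FastQC 0.11.5, Trimmomatic 0.36, TopHat2 2.1.1, Bowtie2 2.3.2, featureCounts 1.5.3, R 3.6.1, edgeR 3.18.1 and GRCm38. The annotation and strand setting of the counting are not given in the sources used here, so reads of genes that overlap may have been split. Groups, mice and letters came from the sample labels, which do not tie a letter to 1 of the independent experiments they mention.

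Symbols, positions and exon lengths came from GENCODE M21 (GRCm38), which held 51633 of 51826 identifiers. In R 4.3.3, edgeR 4.0.16 with limma 3.58.1 filtered genes by filterByExpr, normalized by TMM and tested 15038 genes with glmTreat on the quasi-likelihood fit against a 1.5-fold change, adjusting by Benjamini-Hochberg at a threshold of 0.05. All adjusted p-values are over all genes tested. Interactions of mouse and condition used glmQLFTest. Standard errors are those of the difference in mean log2 CPM (prior count 2), and single genes were tested by two-sided exact permutation over all labelings of 6 against 6. RPKM are TMM-scaled CPM per kilobase of exon union. Plots used matplotlib 3.10.9 in Python 3.11.15 with pandas 2.3.3 and numpy 2.4.6. The code was tested on simulated data.

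Total counts were 34791011 to 66011225 per line. The floor of 3 counts covers counting error only, since reads are not independent molecules. Lines of a mouse and condition differed by 10.1 to 477 in chi-square per gene, so none was treated as a duplicate. Lines with the same first digit come from the same mouse by the labels. Deviations from condition means correlated at 0.0853 to 0.240 between an EV and a BCR-ABL1 line of the same mouse. Between an EV and a BCR-ABL1 line of different mice the values were −0.203 to −0.0636. Each condition mean spans both mice, so the negative values partly follow from the positive ones. Mouse was therefore used as the pairing block in an alternative, with 1126 genes higher and 1080 lower.

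The members and the gene lists were chosen with earlier results of these data known. Detected collagen genes were named freely, called genes and the nearest uncalled one with every line, and from other lists called genes, trimer partners and receptors of called chains. Genes named outside this rule (P4hb, Serpinh1, Loxl3, Ctsl, Mmp13, Mmp14, the laminin genes, the markers and the neighbours) were picked after their values were seen. Alternatives were RLE size factors, 3 other gene filters, the likelihood ratio fit, DESeq2 1.42.0, a test against no change, 2 blocks, each mouse alone and each line left out. Leaving out EV 2A and EV 2B was added after seeing the data. No protein sequence was used here.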

Additional observations from a re-analysis of the deposited data

Results flagged for a closer look

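Of 62 groups of 6 lines tested with Dixon's criterion, 9 held a line beyond its 95% limit, where chance flags about 1 in 20 groups. Among EV lines, these were EV 2A for Col2a1 (0.613 CPM), Col5a2 (0.215 CPM) and Nid2 (0.368 CPM), EV 2B for Col27a1 (3.10 CPM), and EV 2C for P4hb (278 CPM). Among BCR-ABL1 lines, 1A was low for Col5a3 (1.05 CPM), 2A low for Alpl (146 CPM) and 2A high for P4ha1 (96.5 CPM).

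The remaining one was Col25a1, a transmembrane collagen and not among the detected genes, which had 190 counts (3.43 CPM) in EV 2C, against 25 in EV 2A, 9 in EV 2B and at most 2 in each of the other 9 lines. The level of 3.43 CPM in that line was above those of Col26a1 and Col20a1 in the same line.

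The interaction of mouse and condition was called for 16.9% of all tested genes, and among the genes described with values for those given here and for Mmp13 and Mmp14. For Col7a1 the log2 change in mouse 2 minus that in mouse 1 was 0.74 (adjusted p = 0.0479). It was −2.40 for P4ha1 (adjusted p = 4.34e-05), −1.75 for Lamb2 (adjusted p = 0.0230), −1.96 for Lamb3 (adjusted p = 2.04e-05), −1.28 for Lamc1 (adjusted p = 0.000574), 1.35 for Spp1 (adjusted p = 0.0100) and −2.97 for Myl10 (adjusted p = 0.000374). For P4ha1 and Myl10 the EV lines differed more between the mice than the BCR-ABL1 lines did. Myl10 held 14.3 to 22.2 CPM in mouse 1 EV lines, 74.7 to 182 CPM in mouse 2 EV lines and 990 to 1372 CPM over all BCR-ABL1 lines.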

How the results depend on the processing

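Col5a2 was called higher under all 24 alternatives (log2 fold change 7.91 to 12.98, adjusted p at most 0.00282) and Col27a1 under 23, the exception being mouse 2 alone. Col5a3 lost its call in 4 alternatives and Col26a1 in 12, always with the same direction. The number of collagen genes called higher was 2 in mouse 2 alone and 2 with the line pair (mouse and letter) as a block, where Col5a3 (adjusted p = 0.0508) and Col26a1 (adjusted p = 0.0511) were lost, and 2 to 4 on leaving out 1 line, with 2 without EV 2B and without BCR-ABL1 2A. After removal of mouse means, lines with equal mouse and letter correlated at −0.109 to 0.0856. Lines with unequal letters were not set beside these, so whether letters pair lines cannot be decided here. With mouse as a block no collagen gene changed its call. Collagen genes called lower numbered 2 without a gene filter (Col4a3 and Col25a1, in a fit where the median of all genes was −0.84) and 1 with the filter of 10 counts in 3 lines (Col12a1). Over all genes those fits called 999 of 40750 and 1243 of 16407 lower. Col4a3, Col25a1 and Col12a1 had 10 counts in EV lines alone. Without EV 2A and EV 2B, Col6a6 and Col14a1 were called higher and Col26a1 was not (adjusted p = 0.0754). Those lines held the highest EV values of Col6a6 and Col14a1 and were left out after the values were seen. Directions reversed for Col14a1 in mouse 2 (−0.73) and without EV 1B (−0.061) or EV 2C (−0.055), with −0.061 to 1.08 over the lines left out, and for Col7a1 in mouse 2 (0.19). With 3 counts in 3 lines as the criterion 32 genes were detected. Collagen genes with an interaction numbered 3 by likelihood ratio, 4 by DESeq2, 0 with the letter as a block, 3 without EV 2A and EV 2B and 0 to 5 on leaving out 1 line. The cause of these changes was not tested.

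In a test against no change, 3 maturation genes were higher (P4ha1, P4hb and Ppib) and 1 lower (Loxl3), 1 receptor was lower (Cd44), 1 turnover gene was higher (Ctsl), and of other matrix genes 3 were higher (Nid2, Lamb3 and Lamc1) and 2 lower (Lamb1 and Emilin1). Over all 15038 genes that test called 3389 higher and 3897 lower. In mouse 1 alone, 2 maturation genes were higher (P4ha1 and Loxl2), 1 receptor was higher (Lair1) and 1 lower (Cd44), 2 turnover genes were higher (Ctsl and Mmp14), and of other matrix genes 6 were higher and 2 lower (Lamb1 and Vcan). That fit called 2512 of all 15395 tested genes higher and 1877 lower. In mouse 2 alone, 2 maturation genes were higher (P4ha1 and Plod2), 1 turnover gene was higher (Ctss) and 1 lower (Mmp14), and 0 other matrix genes were lower. There 614 of all 15400 tested genes were called higher and 408 lower. Without a gene filter 1 receptor was lower (Mrc2), as with the filter of 10 counts in 3 lines (1), and of other matrix genes 2 were higher (Nid2 and Lamc1) and 2 lower (Lamb1 and Thbs1). Over all genes, 1081 of 40750 were called higher and 999 lower without a filter. With 10 counts in 3 lines these were 1065 and 1243 of 16407. With a CPM of at least 1 in 6 lines 0 other matrix genes were lower, beside 674 of all 11985 tested genes. The likelihood ratio fit called 2 other matrix genes higher (Nid2 and Lamc1), beside 1025 of all 15038 tested genes. With mouse as a block 1 turnover gene (Ctsl) and 4 other matrix genes were higher, and with the line pair as a block 1 turnover gene (Ctsl). Of all 15038 tested genes, 1126 were called higher with the mouse block and 923 with the pair block. Without EV 2A and EV 2B 1 receptor (Itga1) and 3 other matrix genes (Nid2, Lama5 and Lamc1) were higher, beside 1438 of all 15404 tested genes. On leaving out 1 line, turnover genes called higher numbered 0 to 1, with 1 without EV 2C, and other matrix genes 1 to 3, with 2 without EV 2A and 3 without EV 2C. Low counts limit what can be said of the 32 undetected collagen genes.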
